A study of Mus musculus with 29 samples.

Results

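Prostaglandin synthesis was followed through 7 genes, taken by symbol from a table of 55357 mouse genes: Pla2g4a, Ptgs1, Ptgs2, Ptges, Ptgis, Ptger4 and Hpgd. All 7 were found, each in 1 row. RNA was counted in 29 libraries of primary cardiac fibroblasts, the matrix-producing cells of the heart, and libraries held between 1192668 and 3275089 counts. Cells taken straight from the heart gave 6 of them (3 from young mice, 3 from aged mice), and the other 23 came from young or aged cells kept for 48 h on DECIPHER substrates, hydrogels built around heart extracellular matrix (ECM). The 4 substrates were SoftY and StiffY, which carry matrix of young heart, and SoftA and StiffA, which carry matrix of aged heart, each with a soft or a stiff gel. The labels name no strain, sex, exact age or genetic change. There were 3 libraries in each of the 10 groups, with the exception of SoftY with young cells, which had 2. The labels call libraries of a group biological replicates but name no animals, and a p-value here measures only the spread between these libraries, which may be technical.

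Prostaglandins are short-lived lipid signals made from arachidonic acid. Cytosolic phospholipase A2 frees this fatty acid from membranes, the cyclooxygenases turn it into prostaglandin H2, and terminal synthases convert that into prostaglandin E2, prostacyclin and other products, which act on receptors of the cell surface. In the heart, fibroblasts are a known source of prostaglandin E2 and prostacyclin, and cyclooxygenase 2 is the step that inflammatory stimuli and injury induce.

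The levels below are counts scaled to CPM by the TMM-adjusted library total. Differences are log2 fold changes ± SE from edgeR's quasi-likelihood test, with Benjamini-Hochberg adjusted p-values over all genes of a fit, and rose, fell, higher and lower as verdicts refer to an adjusted p under 0.05. All 8 fibroblast markers (Pdgfra, Col1a1, Col1a2, Dcn, Lum, Tcf21, Dpep1 and Gsn) had counts in all 10 groups, with a summed level of 6310 to 7850 CPM in fresh and 19600 to 29800 CPM in cultured libraries. In bulk RNA, fewer cells of a type and less RNA per cell cannot be told apart.

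The promoters of Ptgs2 and Ptges are shown because of the 7 genes these had the largest age differences in fresh cells and the largest culture differences in aged cells. Sequences are from RefSeq (GRCm38.p6), whose table matched 6 of the 7 genes, and run from 250 bases before to 50 bases after the annotated start, 5′ to 3′ on the gene's strand. In Ptgs2 (chr1:150099781-150100080, plus strand) capitals mark 4 matches: the GC box GGGCGG at position -170, the C/EBP palindrome TTGCGCAA at position -69, and, overlapping each other, the short CRE core TGACG (on the other strand, from position 14) and the E-box CACGTG (from position 17). In Ptges (chr2:30903248-30903547, minus strand) capitals mark the GC box GGGCGG and the Egr core GTGGGCG, which overlap each other and occur together at 2 places.
Ptgs2 promoter: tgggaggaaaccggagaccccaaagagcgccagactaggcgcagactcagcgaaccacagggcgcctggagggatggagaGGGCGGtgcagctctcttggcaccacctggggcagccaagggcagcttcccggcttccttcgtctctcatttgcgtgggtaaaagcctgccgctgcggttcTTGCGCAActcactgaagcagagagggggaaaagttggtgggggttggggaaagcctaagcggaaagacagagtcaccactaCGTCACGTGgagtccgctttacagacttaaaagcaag
Ptges promoter: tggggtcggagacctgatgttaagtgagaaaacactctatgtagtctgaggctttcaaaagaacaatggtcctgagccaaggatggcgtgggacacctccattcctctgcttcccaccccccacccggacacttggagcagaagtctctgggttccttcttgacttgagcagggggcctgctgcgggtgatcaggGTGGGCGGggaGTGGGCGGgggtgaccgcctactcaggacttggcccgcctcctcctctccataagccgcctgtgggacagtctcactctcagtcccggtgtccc
On both strands, TTGCGCAA was found in 0.183% of all 32851 promoter windows of this length, CACGTG in 7.15%, TGACG in 20.8%, GGGCGG in 35.7% and GTGGGCG in 7.97%. TTGCGCAA was in no other window of the 6 matched genes. The windows of Ptgs1 and of the upstream start of Pla2g4a held none of the 8 motifs searched, which also included the full CRE TGACGTCA, the AP-1 site TGANTCA and the TATA box TATAAA. A match is a description of letters and not of a bound site.

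Freshly isolated aged cells were compared with fresh young cells to ask which steps of the pathway differ with age in such cells. A response to the isolation itself cannot be told apart from age here and was not tested. 5 of the 6 genes with enough counts to test were higher in aged cells, beside 15.0% of 11786 tested genes that were higher and 31.8% that passed the test in either direction. Of all calls 47.2% were higher, and 30.7% with library totals alone as scaling. The median log2 fold change was 1.03 over the 6 genes and -0.02 over all genes. The inducible cyclooxygenase differed most, followed by the prostaglandin E synthase, the receptor, the phospholipase and prostacyclin synthase, while the constitutive cyclooxygenase did not pass the test.

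Pla2g4a (ENSMUSG00000056220, mm39 chromosome 1, 149705369 to 149837042) encodes the cytosolic phospholipase A2 that releases arachidonic acid. Its level was 117, 123 and 121 CPM in the fresh young libraries and 227, 250 and 200 CPM in the fresh aged ones. Every aged library lay above every young one, and Pla2g4a rose by 0.87 ± 0.09 (adjusted p = 3.17e-06).

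Ptgs1 (ENSMUSG00000047250, mm39 chromosome 2, 36120438 to 36142285) encodes cyclooxygenase 1, the constitutive form. Its level was 20.2, 27.3 and 23.8 CPM in fresh young and 28.1, 26.9 and 25.9 CPM in fresh aged libraries. The groups overlapped, and the difference was 0.14 ± 0.17 (95% interval -0.20 to 0.48, adjusted p = 0.582).

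Ptgs2 (ENSMUSG00000032487, mm39 chromosome 1, 149975782 to 149983979) encodes cyclooxygenase 2, the inducible form, and has Pla2g4a as a neighbour 138.7 kb away with 0 protein-coding genes between them. Its level was 22.9, 26.4 and 25.7 CPM in the fresh young libraries and 401, 473 and 460 CPM in the fresh aged ones. The groups were far apart, the lowest aged library resting on 972 counts and the highest young one on 92. Ptgs2 rose by 4.11 ± 0.10, or 17.3-fold (adjusted p = 8.12e-13). Within single libraries the ratio of Ptgs2 to Ptgs1 counts was 0.968 to 1.14 in fresh young and 14.3 to 17.8 in fresh aged cells.

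Ptges (ENSMUSG00000050737, mm39 chromosome 2, 30779483 to 30819876) encodes microsomal prostaglandin E synthase 1, which works downstream of cyclooxygenase 2. Fresh young libraries had 55.8, 42.8 and 53.8 CPM, and fresh aged ones 188, 171 and 195 CPM, with no overlap. Ptges rose 3.57-fold (adjusted p = 2.57e-08).

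Ptgis (ENSMUSG00000017969, mm39 chromosome 2, 167033725 to 167082525) encodes prostacyclin synthase. Its level was 91.1, 88.8 and 73.4 CPM in fresh young and 135, 128 and 127 CPM in fresh aged libraries. Again all aged libraries lay above all young ones, by a smaller step, and Ptgis rose by 0.58 ± 0.10 (adjusted p = 0.000507). The ratio of Ptges to Ptgis counts was 0.482 to 0.732 in fresh young and 1.33 to 1.53 in fresh aged libraries, so that the 2 sets of libraries lay on opposite sides of 1.

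Ptger4 (ENSMUSG00000039942, mm39 chromosome 15, 5236142 to 5273669) encodes EP4, a prostaglandin E2 receptor that raises cAMP. Fresh young libraries had 15.1, 12.4 and 11.7 CPM, and fresh aged ones 33, 26.5 and 32.1 CPM. The groups did not overlap, and Ptger4 rose by 1.19 ± 0.20 (adjusted p = 0.000321). The gene shares 11677 bases with the protein-coding gene Ttc33, and the strand setting of the counting is not given in the sources used here, so that reads of the 2 genes could be mixed. Ttc33 itself had 28.1 to 32.7 CPM in fresh young and 20.8 to 36.5 CPM in fresh aged libraries.

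Hpgd (ENSMUSG00000031613, mm39 chromosome 8, 56747620 to 56774079) encodes 15-hydroxyprostaglandin dehydrogenase, which inactivates prostaglandins. It had 4, 2 and 3 counts in the fresh young and 3, 1 and 1 counts in the fresh aged libraries. These counts were too few for the test, and no age difference was detectable at this depth.

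Macrophages and neutrophils can also make cyclooxygenase 2, and markers of several cell types differed in the same comparison. Of 9 tested macrophage and myeloid markers, 5 (Ptprc, Cd68, Lyz2, Cd14 and Tyrobp) were higher in fresh aged cells and 0 lower, and the summed level of all 12 listed was 218 to 220 CPM in fresh young and 387 to 435 CPM in fresh aged libraries. For the 5 neutrophil markers the sums were 0.467 to 4.45 and 9.5 to 12.4 CPM, with S100a9 and Retnlg at 0 in both groups. The higher sum rested on S100a8, with 5 counts over the fresh young and 72 over the fresh aged libraries. Csf3r went the other way, with 16 and 9 counts, and Cxcr2 had 0 and 1. The summed endothelial markers were 142 to 161 and 184 to 196 CPM, with Cdh5 higher as 1 of 8 tested. Of the 8 fibroblast markers, 6 were lower in fresh aged cells and 2, Dcn and Lum, were higher (median -0.61). Col1a1 went from a mean of 1320 to 255.4 CPM and Col1a2 from 785.2 to 173 CPM, and the sums were 7470 to 7850 CPM in young and 6310 to 6820 CPM in aged libraries. Pdgfrb, a pericyte and smooth muscle marker, fell by 0.99, and the 1 mast cell marker tested, Kit, did not pass the test. The part of these markers in the result was not tested.

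**Figure D1:**
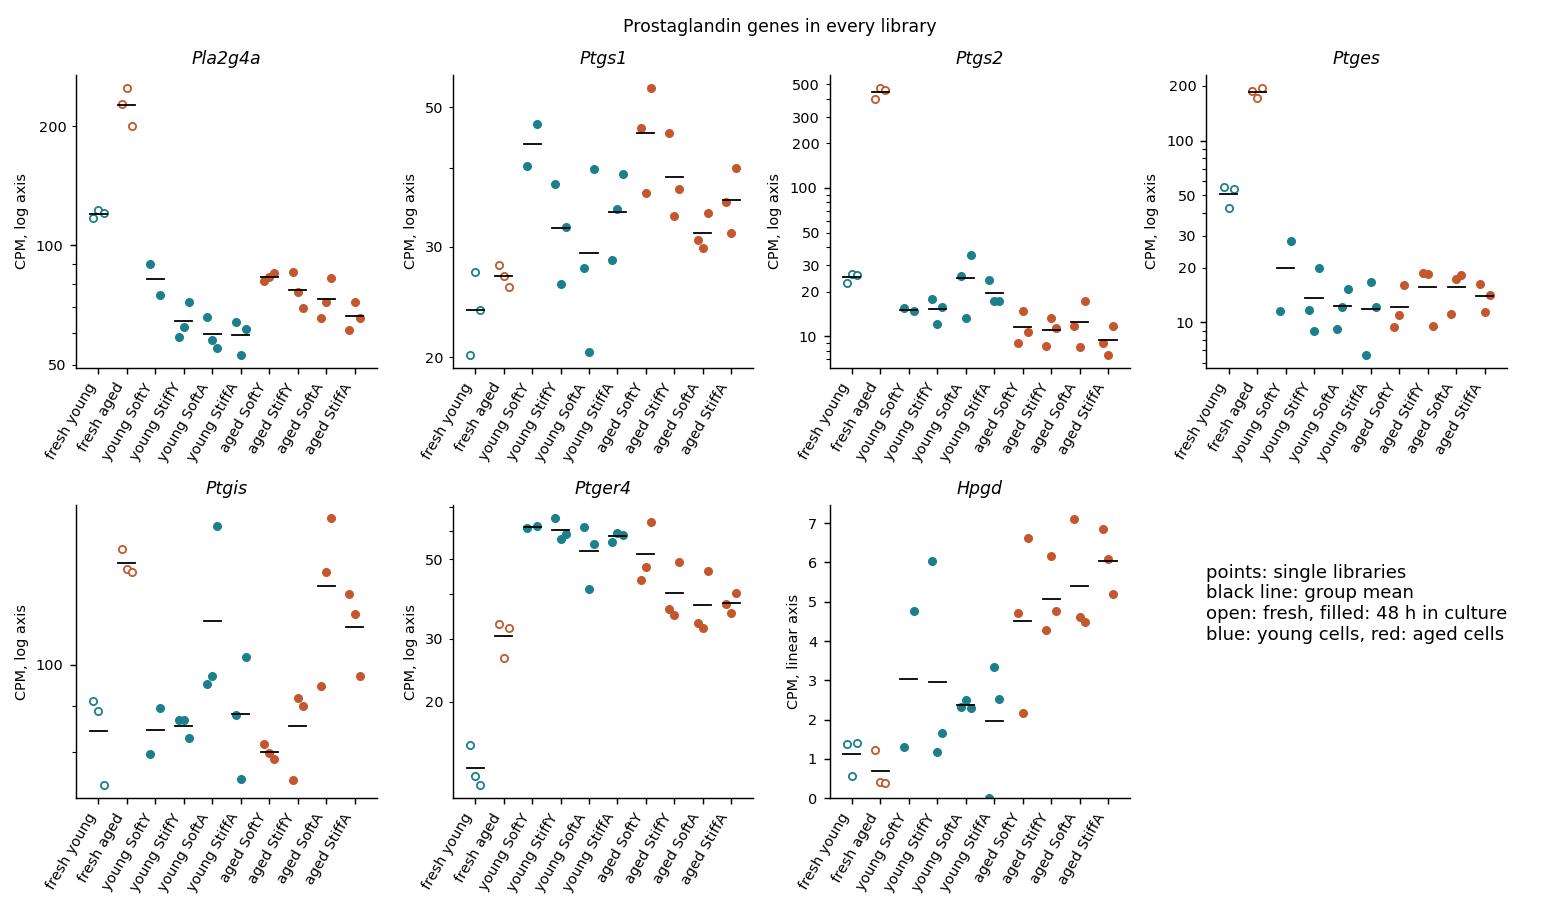
CPM of the 7 genes in every library (points) and the mean of each group (black line), on a log axis except for Hpgd. The 3 fresh aged libraries stood between 401 and 473 CPM for Ptgs2, where all other libraries lay at or below 35.3 CPM.

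Other genes of the pathway, from lists chosen by function, moved in both directions in fresh cells. Of 8 tested genes of arachidonate release, 4 were higher and 2 lower in aged cells (median 0.52). The first were Acsl4, an acyl-CoA synthetase that prefers arachidonate (0.86 ± 0.06, adjusted p = 1.07e-07), Lpcat3, Pla2g6 and Dagla, and the second Daglb (-0.61) and Pla2g4c (-1.70). Of 8 tested further prostanoid synthases, 2 were higher and 1 was lower (median 0.17). Akr1c18, an aldo-keto reductase, had 48 to 74 counts in fresh young and 302 to 354 counts in fresh aged libraries (2.53 ± 0.12, adjusted p = 2.13e-09), and Akr1b8, of the same superfamily, rose by 1.69 ± 0.10. Both have close paralogs, between which reads may be split in ways the table does not show. Ptges3, which encodes the cochaperone p23, fell by 0.37.

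Of 7 tested genes of transport and breakdown, 3 were higher and 2 lower in fresh aged cells (median -0.24). Abcc4, an exporter of prostaglandins, went from a mean of 36.7 to 127.9 CPM (1.76 ± 0.11, adjusted p = 3.64e-08), Ptgr1 and Zadh2 (Ptgr3), reductases that act on prostaglandin metabolites, rose by 0.74 and 0.79, and the prostaglandin importer Slco2a1 and the transporter gene Slco3a1 fell by 0.37 and 0.50. Among 8 further prostanoid receptors only the prostacyclin receptor Ptgir could be tested, at 207 to 214 CPM in young and 184 to 208 CPM in aged libraries, and it did not pass the test.

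Genes known to induce Ptgs2 or to control its mRNA were split as well, with 7 of 19 higher and 6 lower in fresh aged cells (median 0.15). The interleukin 1 genes Il1a (mean 8.19 to 31.5 CPM, 1.92 ± 0.23, adjusted p = 1.5e-05) and Il1b (2.07 to 6.62 CPM, 1.60 ± 0.38, adjusted p = 0.00544) were higher, as were the early response factor Egr1 (1.88 ± 0.06, adjusted p = 1.71e-11) and the mRNA decay factor Zfp36 (0.94 ± 0.12). Nr3c1, the glucocorticoid receptor gene, fell by 0.72 and Anxa1, annexin A1, by 0.80. In the list of cAMP response genes, 7 of 12 tested genes were higher and 1, Creb1, was lower (median 0.57), led by the orphan nuclear receptor gene Nr4a1 (2.53 ± 0.11, adjusted p = 8.81e-10) and the hyaluronan synthase gene Has1 (2.43 ± 0.13, adjusted p = 3.76e-09).

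Between genes, levels were compared per kilobase of exon (union of GENCODE M21 exons). In fresh young cells Ptgis was highest of the 7 at 32.9 CPM per kb, ahead of Pla2g4a at 18.8 and Ptges at 12.9, with Ptgs1 at 6.13 and Ptgs2 at 5.46 behind them. In fresh aged cells Ptgs2 was highest at 97.2 CPM per kb, ahead of Ptgis at 50.6 and Ptges at 47.1. On each of the 4 substrates, in young and in aged cells, Ptgis was again highest, at 31.1 to 47.9 CPM per kb.

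Cultured cells were compared with fresh cells of the same age. In young cells 5 of 7 genes passed the test, 2 higher and 3 lower, beside 56.9% of 13523 tested genes (27.1% higher, 29.9% lower). In aged cells all 7 passed, 3 higher and 4 lower, beside 62.4% of genes (29.9% higher, 32.5% lower), so that both counts stood on a background where most genes differed. Ptgs2, Ptges and Pla2g4a were lower and Ptgs1 and Ptger4 higher after culture at both ages.

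The 11 young cultured libraries had 12.1 to 35.3 CPM of Ptgs2 (median 17.2), and the 12 aged ones 7.51 to 17.2 CPM (median 11.1). All 12 aged libraries were far below the 401 to 473 CPM of fresh aged cells, while the young range overlapped that of fresh young cells. Ptgs2 fell by 5.33 ± 0.14 in aged cells (adjusted p = 9.3e-25) and by 0.48 ± 0.18 in young cells (adjusted p = 0.0267). The second call was lost without fresh young library 2 (adjusted p = 0.117) or 3 (0.0863), and without young library 2 on SoftY or on StiffY (0.0513 each).

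Ptges ranged from 6.63 to 28.1 CPM (median 12.1) in young and from 9.44 to 18.7 CPM (median 15.1) in aged cultured cells. Each cultured library lay below the lowest fresh library, which had 42.8 CPM. It fell by 1.89 ± 0.20 in young cells (adjusted p = 2.12e-09) and by 3.68 ± 0.17 in aged cells (adjusted p = 4.38e-18). The ratio of Ptges to Ptgis counts was 0.0755 to 0.314 in young and 0.101 to 0.252 in aged cultured libraries, below all fresh ones.

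Pla2g4a was at 53 to 89.7 CPM in young and 61.2 to 85.6 CPM in aged cultured cells, below each fresh library. It fell by 0.88 ± 0.09 (adjusted p = 5.79e-10) and by 1.59 ± 0.08 (adjusted p = 4.78e-17). Ptgis did not pass the test in young cells (0.11, 95% interval -0.12 to 0.34, adjusted p = 0.423) and fell by 0.40 ± 0.11 in aged cells (adjusted p = 0.00212), where its cultured range of 74.4 to 146 CPM overlapped the fresh one.

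Ptgs1 had 20.4 to 47.1 CPM in young and 29.9 to 53.7 CPM in aged cultured libraries, and rose by 0.51 ± 0.16 (adjusted p = 0.00739, and 0.0516 without fresh young library 1) and by 0.48 ± 0.16 (adjusted p = 0.00962). The ratio of Ptgs2 to Ptgs1 counts, near 1 in fresh young cells, was 0.312 to 0.917 in young and 0.188 to 0.505 in aged cultured cells. Ptger4 was at 41.2 to 65.1 CPM in young cultured libraries, all above the 11.7 to 15.1 CPM of fresh young cells, and rose by 2.13 ± 0.16 (adjusted p = 1.1e-12). In aged cells Ptger4 had 32.2 to 63.6 CPM and rose by 0.44 ± 0.14 (adjusted p = 0.00773, and 0.0731 without fresh aged library 2). The overlapping gene Ttc33 had 36.3 to 50.7 CPM in cultured libraries of both ages.

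Hpgd was at 0 to 6.03 CPM (0 to 15 counts) in young and 2.18 to 7.11 CPM (4 to 19 counts) in aged cultured libraries. In aged cells it rose by 2.85 ± 0.63 (adjusted p = 0.000265) against 5 counts over the 3 fresh libraries, and by 3.52 without fresh aged library 1 (adjusted p = 0.000744). In young cells the difference was 1.21 ± 0.60 (adjusted p = 0.0876), and it passed the test without young library 1 on SoftY (0.0439) or on StiffA (0.0293).

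Whether culture moved a gene by another amount in aged than in young cells was tested as an interaction, which shares the fresh libraries with the age comparison above. 5 of 7 genes differed, all with a lower value in aged cells, beside 10.1% of 13523 genes that were lower and 20.6% in either direction. Of all calls 50.9% were higher, and 75.4% with library totals alone. The difference of the 2 culture effects was -4.85 ± 0.24 for Ptgs2 (adjusted p = 8.47e-16), -1.79 ± 0.28 for Ptges (adjusted p = 1.67e-05) and -1.70 ± 0.21 for Ptger4 (adjusted p = 3.31e-07). For Pla2g4a it was -0.71 ± 0.13 (adjusted p = 6.6e-05), and for Ptgis -0.51 ± 0.16 (adjusted p = 0.0209). Ptgs1 (adjusted p = 0.949) and Hpgd (adjusted p = 0.265) did not pass the test. The Ptgis call was lost with library totals alone as scaling (adjusted p = 0.162), without fresh young library 2 (0.0512) or 3 (0.104), and without fresh aged library 1 (0.0564).

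**Figure D2:**
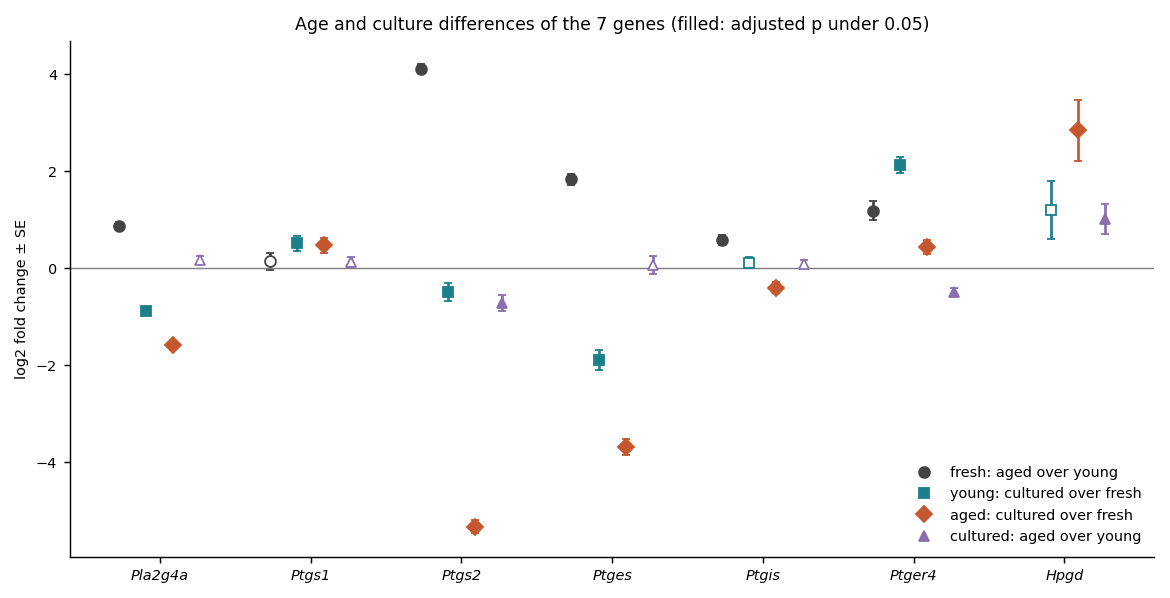
Log2 fold changes (points) with SE (bars) of the 7 genes in 4 comparisons; filled points passed the test. Ptgs2 stood at 4.11 for age in fresh cells and at -5.33 for culture of aged cells, and Ptgs1 lay within 0.51 of 0 in each comparison.

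Myeloid markers were lower in culture at both ages, 9 of 9 tested in aged cells and 7 of 9 in young ones, and summed to 23 to 68.2 CPM in all cultured libraries. The summed neutrophil markers were at most 0.781 CPM in any cultured library. The median of the tested myeloid markers was -3.45 in young and -5.56 in aged cells. Ptgs2 was at -0.48 and -5.33, and Ptges at -1.89 and -3.68. The part of the myeloid and neutrophil markers in the result was not tested. Endothelial markers were lower as well, 7 of 8 in young and 6 of 8 in aged cells, and Tek was higher at both ages. Their sums were 65.4 to 123 CPM in young and 90.1 to 182 CPM in aged cultured libraries. Fibroblast markers moved in both directions, 6 of 8 higher and 1 lower in young cells and 5 higher and 2 lower in aged cells. Col1a1, at a mean of 12430 CPM in young and 10470 CPM in aged cultured cells, made up much of their sum of at least 19600 CPM, while Pdgfra fell at both ages and Dcn in aged cells. In the test of the difference between ages, 7 of 9 myeloid markers were lower, 4 of 8 endothelial ones higher, and 5 of 8 fibroblast ones higher and 2 lower. Mast cell markers tested were Kit, Hdc and Cpa3, of which Cpa3 was higher and Hdc lower at both ages. The 1 of 6 cardiomyocyte markers tested, Tnnt2, the 1 of 6 epicardial and mesothelial markers tested, Upk3b, and Pdgfrb were higher at both ages. Untested markers of these lists did not all move that way. In aged cells Krt19 went from a mean of 3.13 CPM in fresh cells to group means of at most 0.751 CPM in culture. Lrrn4 went from 3.36 to at most 1.48 CPM, and Myh6 from 5 counts to 0 in each aged cultured group. The part of these markers was not tested either.

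**Figure D3:**
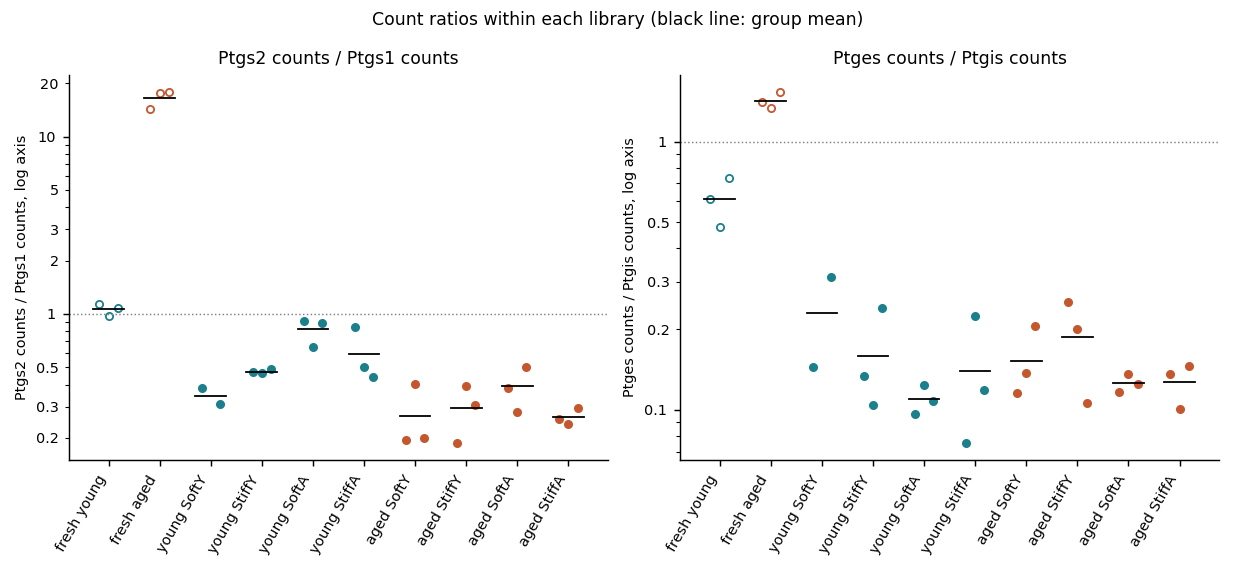
Ratio of Ptgs2 to Ptgs1 counts and of Ptges to Ptgis counts in every library (points) with group means (black lines), on log axes. Fresh aged libraries stood at 14.3 to 17.8 and at 1.33 to 1.53, above all other libraries in both panels.

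Among the further receptors and synthases, Tbxa2r and Akr1c18 had the largest culture differences. Tbxa2r, the thromboxane receptor gene, had 0 to 3 counts in the 6 fresh libraries and 22 to 147 counts in the 23 cultured ones. Aged cultured cells had 1104 counts against 2 in fresh aged cells, both in library 3, a CPM ratio of 152 (exact 95% counting interval 41.9 to 1250), and the test gave adjusted p = 5.26e-13 in young and 2.13e-14 in aged cells. Akr1c18 went the other way, from 196 counts in fresh young cells to 2 over 11 young cultured libraries (ratio 270, exact 95% counting interval 73.7 to 2240) and from 1004 to 11 counts in aged cells (-8.35, and -9.01 without aged library 2 on StiffY). Ptgir, by contrast, fell by 0.76 at both ages and kept a median of 114 CPM in young and 119 CPM in aged cultured cells.

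By list, 4 of 8 tested further synthases were lower and 2 higher in young cells, and 5 lower and 1 higher in aged cells (medians -0.47 and -0.87). Hpgds, Ptges2, Ptges3 and Akr1c18 were lower and Prxl2b, a prostamide synthase gene, higher at both ages, while Akr1b8 was higher in young (0.59) and lower in aged cells (-0.96). For arachidonate release the counts were 4 lower and 2 higher of 9 in young cells and 5 lower and 2 higher in aged cells (medians -0.26 and -0.75), with Acsl4 falling by 1.33 and 1.95. Lpcat3 and Pla2g12a were also lower and Mgll and Pla2g15 higher at both ages, Pla2g4c was lower in young, and Dagla and Pla2g6 were lower in aged cells. The Lpcat3 call in young cells was lost without a low-count filter (adjusted p = 0.147). It was also lost without fresh young library 1 (0.11) or young library 2 on SoftY (0.0569). Of 7 tested genes of transport and breakdown, 4 were lower and 0 higher in young cells, and 5 lower and 2 higher in aged cells (medians -0.26 and -1.12). Slco2a1 fell by 2.39 ± 0.12 (adjusted p = 4.59e-17) and by 2.79 ± 0.12 (adjusted p = 1.17e-18). Slco3a1, Abcc4 and Zadh2 were lower at both ages, and in aged cells Ptgr1 was lower and Ptgr2 and Ptgfrn were higher. The Zadh2 call in young cells was lost without a low-count filter (adjusted p = 0.103) and without fresh young library 1 (0.197) or 2 (0.113). Without young library 2 on SoftY it was lost too (0.0577). Each of the 3 medians is to be read beside all-gene medians of -0.03 and -0.01.

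Genes that act on Ptgs2 were lower in 8 and higher in 6 of 20 cases in young cells, and lower in 13 and higher in 5 in aged cells (medians -0.14 and -0.87). Il1b and Tnf, 2 classical inducers, had 0 counts in all 23 cultured libraries, so that Il1b was at least 16.5-fold lower than in fresh young and at least 59.5-fold lower than in fresh aged cells (floor of 3 counts over the group). Il1a had 233 counts in fresh aged and 0 in aged cultured cells, at least 283-fold lower. The interleukin 1 receptor antagonist gene Il1rn was lower too. With 1 library left out, its log2 fold change was -4.76 to -4.20 in young and -7.61 to -7.04 in aged cells. Nfkbia, the NF-kB inhibitor gene, fell by 1.99 ± 0.11 in young and by 3.02 ± 0.11 in aged cells. The glucocorticoid-induced gene Tsc22d3 rose by 2.01 ± 0.14 and 1.80 ± 0.14, and Anxa1 by 1.77 ± 0.14 and 2.56 ± 0.15. In aged cells the receptor genes Il1r1, Tnfrsf1a and Nr3c1 were the other 3 of the 5 that were higher. Egr1 rose by 2.34 ± 0.15 in young cells and fell by 2.30 ± 0.11 in aged cells. Of 12 tested cAMP response genes, 7 were lower and 3 higher in young cells and 10 lower and 2 higher in aged cells (medians -0.75 and -2.31), with Nr4a1 rising by 2.99 ± 0.14 in the first and falling by 4.36 ± 0.12 in the second. Prkar1a was higher at both ages, Per1 in young and Creb1 in aged cells.

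After 48 h, aged cells were compared with young cells over the 4 substrates, with all 23 libraries taken as independent. Numbers in the library names recur across substrates within 1 age. Libraries sharing a number were more alike (13 of 33 pairs correlated over 0.1, against 3 of 66). No block by library number was fitted for this comparison. If a number marks 1 cell isolation, which the labels do not say, the p-values are too small. 3 of 7 genes passed the test, beside 15.0% of 12841 genes, and Ptgs2 was now lower in aged cells. It fell by 0.71 ± 0.16 (adjusted p = 0.00372), with 7.51 to 17.2 CPM in aged and 12.1 to 35.3 CPM in young libraries, ranges that overlapped. By substrate the mean ± SD in aged and young cells was 11.5 ± 2.93 and 15.1 ± 0.522 CPM on SoftY, 11.1 ± 2.36 and 15.2 ± 2.83 on StiffY, 12.5 ± 4.41 and 24.6 ± 11 on SoftA, and 9.43 ± 2.17 and 19.5 ± 3.92 on StiffA (n = 3 each, n = 2 for young cells on SoftY). On each substrate the aged mean was thus the lower one.

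Ptger4 also fell, by 0.49 ± 0.09 (adjusted p = 0.000345), with means of 37.2 to 51.6 CPM in the aged and 52.6 to 61.5 CPM in the young groups. Hpgd rose by 1.02 ± 0.32 (adjusted p = 0.0317), with group means of 4.5 to 6.03 CPM in aged and 1.96 to 3.03 CPM in young cells. This call was lost without any 1 of 5 libraries: young SoftY 1 (adjusted p = 0.104), aged SoftY 3 (0.0681), young StiffY 2 (0.0575), aged StiffY 2 (0.0534) and aged StiffA 1 (0.0508).

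Ptges (0.06 ± 0.19, 95% interval -0.31 to 0.43), Ptgis (0.09 ± 0.08, -0.06 to 0.25) and Ptgs1 (0.13 ± 0.10, -0.07 to 0.34) did not pass the test. Pla2g4a was at 0.18 ± 0.07 (adjusted p = 0.0597). It passed with library totals alone (adjusted p = 0.0226), in a fit over all 29 libraries (0.0373), and without young SoftY 1 (0.0423), young StiffY 3 (0.0335), aged StiffY 3 (0.0306), young SoftA 1 (0.0402) or aged SoftA 1 (0.036).

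In the same comparison 10 of 16 tested genes that act on Ptgs2 were lower in aged cells and 0 higher (median -0.44, all genes -0.003). Egr1 had a mean of 142.8 CPM in aged and 936.9 CPM in young cultured cells (-2.73 ± 0.10, adjusted p = 3.23e-17). Cebpd, Cebpb, Nfkbia, Rela and Nfkb1 were lower as well. So were the mRNA decay factor genes Zfp36l1 (-0.46 to -0.40 with 1 library left out) and Zfp36 (-0.85 to -0.59). Of 10 tested cAMP response genes 4 were lower and 1 higher (median -0.52), with Nr4a1 at -4.79 ± 0.10 (adjusted p = 7.95e-22) and the phosphodiesterase gene Pde4b at -1.18 ± 0.06 (adjusted p = 2.93e-13). Per1 and Fosl1 were the other 2 lower genes and Prkar1a the higher one. None of 6 tested further synthases passed the test (median 0.03). Of 8 genes of arachidonate release only Acsl4 passed (0.26, higher; median -0.07). Among 7 genes of transport and breakdown Slco2a1 fell by 0.74 ± 0.12 (adjusted p = 7.28e-05) and Abcc4 rose by 0.51 ± 0.12 (adjusted p = 0.00355). Tbxa2r, 1 of 2 tested receptors, rose by 0.49 ± 0.11 (adjusted p = 0.0045), at 26.8 to 55.0 CPM in aged and 16.9 to 45.2 CPM in young cells.

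In cultured cells 1 of 4 tested myeloid markers, Cd68, was lower with age and 0 were higher, and the neutrophil markers were at or near 0. Endothelial markers were higher in aged cells in 6 of 7 tested cases, with sums of 90.1 to 182 CPM in aged and 65.4 to 123 CPM in young libraries. Of the 8 fibroblast markers 6 were lower in aged cells and 1, Dpep1, was higher (median -0.27). Kit and Pdgfrb were higher and Tnnt2 lower. Their part in the result was not tested.

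The substrates were compared within each age. Matrix of aged heart differed from matrix of young heart in 1 of 7 genes in aged cells, beside 7.44% of 12841 genes, and in 0 of 7 in young cells, beside 2.49%. In young cells 2 of the 7 had an unadjusted p under 0.05, beside 1679 of 12841 genes, and DESeq2 called 0. In aged cells 4 of the 7 had one, beside 2842 of 12841 genes. They were Ptgis, Pla2g4a, Ptgs1 (-0.32 ± 0.14, adjusted p = 0.177) and Ptger4 (-0.27 ± 0.12, adjusted p = 0.2). In aged cells Ptgis had 94.7, 127 and 146 CPM on SoftA and 120, 114 and 97.1 CPM on StiffA. On the young matrix it had 81.5, 79.6 and 78.4 CPM on SoftY and 74.4, 91.9 and 89.9 CPM on StiffY. The 6 libraries on aged matrix all lay above the 6 on young matrix, and Ptgis rose by 0.51 ± 0.11 (adjusted p = 0.00369).

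In young cells Ptgis had 95.3, 97.3 and 143 CPM on SoftA and 87.8, 74.5 and 102 CPM on StiffA, against 79.5 and 89.5 CPM on SoftY and 86.8, 86.7 and 82.8 CPM on StiffY. These overlapped, and the difference was 0.22 ± 0.12 (95% interval -0.01 to 0.45, adjusted p = 0.446). The 2 ages were not shown to differ in this effect of the matrix (0.29 ± 0.16, adjusted p = 0.703). Pla2g4a was at -0.28 ± 0.10 on aged matrix in young cells (adjusted p = 0.136) and at -0.19 ± 0.09 in aged cells (adjusted p = 0.213), and Ptgs2 at 0.51 ± 0.23 in young cells (adjusted p = 0.323).

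Endothelial cells also express Ptgis, and 4 of 7 tested endothelial markers (Pecam1, Cdh5, Tie1 and Emcn) were higher on aged matrix in aged cells, with sums of 133 to 182 CPM against 90.1 to 125 CPM on young matrix. In young cells 0 of 7 passed, with sums of 92 to 123 against 65.4 to 100 CPM. Upk3b, the 1 of 6 listed epicardial and mesothelial markers with enough counts to test, was higher on aged matrix at both ages. Fibroblast markers were split in aged cells, with Col1a1 and Col1a2 higher and Pdgfra, Lum, Dpep1 and Gsn lower, and in young cells Pdgfra and Lum were lower. Their part in the Ptgis result was not tested.

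Beside prostacyclin synthase, its receptor moved in the other direction. Ptgir was at 79.2 to 112 CPM on aged matrix and 126 to 150 CPM on young matrix in aged cells, without overlap, and fell by 0.52 ± 0.09 (adjusted p = 0.000236). In young cells it had 86.4 to 121 CPM on aged and 113 to 185 CPM on young matrix and fell by 0.51 ± 0.09 (adjusted p = 0.00122). Akr1b8 rose on aged matrix by 0.65 ± 0.09 in aged cells (adjusted p = 5.3e-05) and by 0.70 ± 0.10 in young cells (adjusted p = 0.000191). Acsl4 was the 1 of 8 genes of arachidonate release that passed, in aged cells (0.25, adjusted p = 0.0313). That call was lost with library totals alone (adjusted p = 0.0775), under DESeq2 (0.0569) and without a low-count filter (0.118). It was also lost in 8 of 12 fits with 1 library left out. 0 of 7 genes of transport and breakdown passed at either age. Of genes that act on Ptgs2, Il1r1 was lower on aged matrix in aged cells (-0.30, adjusted p = 0.00573) and Dusp1 higher in young cells (0.45, adjusted p = 0.0108).

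**Figure D4:**
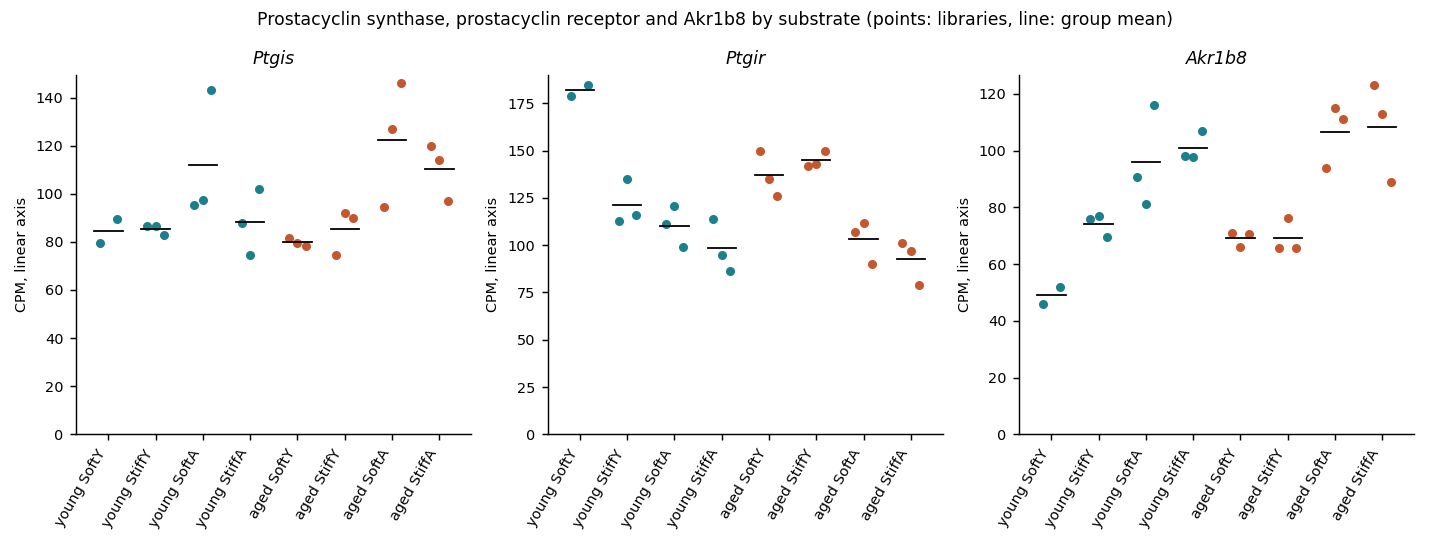
CPM of Ptgis, of the prostacyclin receptor gene Ptgir and of Akr1b8 in every cultured library (points) with group means (black lines), on linear axes. In aged cells on aged matrix all 6 libraries were at or above 94.7 CPM for Ptgis and at or below 112 CPM for Ptgir.

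Gel stiffness had no detectable effect on the 7 genes. In young cells 0 of 7 passed the test, beside 3.56% of genes, with differences from -0.33 (Ptges) to 0.07 (Ptger4). In aged cells 0 of 7 passed, beside 0.296% of genes, with differences from -0.23 (Ptgs2) to 0.19 (Hpgd). The intervals were narrow for Pla2g4a (-0.37 to 0.001 in young, -0.31 to 0.04 in aged cells) and wide for Ptges (-0.88 to 0.21 and -0.43 to 0.57). At an unadjusted p under 0.05, 0 of the 7 passed at either age, beside 1944 of 12841 genes in young and 709 in aged cells. DESeq2 also called 0. Ptgir was lower on stiff gels in young cells (-0.38 ± 0.09, adjusted p = 0.0144, and 0.0589 without young library 2 on SoftY). On young matrix it had 179 and 185 CPM on SoftY and 113 to 135 CPM on StiffY. On aged matrix the ranges overlapped, at 98.9 to 121 CPM on SoftA and 86.4 to 114 CPM on StiffA.

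StiffA, which joins aged matrix and a stiff gel, was set against SoftY, which has neither. In young cells Pla2g4a had 64.2, 53 and 61.5 CPM on StiffA and 89.7 and 74.8 CPM on SoftY, without overlap, and fell by 0.47 ± 0.14 (adjusted p = 0.0426), the 1 of 7 genes that passed beside 5.26% of genes. That call was lost under DESeq2 (adjusted p = 0.0604), without a low-count filter (0.153) and without any 1 of the 5 libraries compared (0.052 to 0.416). Of the 8 fibroblast markers 5 (Pdgfra, Dcn, Lum, Dpep1 and Gsn) were lower in that comparison too, and their part in it was not tested. In aged cells 0 of 7 passed, beside 4.21%, with Ptgis at 0.48 ± 0.15 (adjusted p = 0.0837, and 0.0341 without a low-count filter). There 3 of the 7 had an unadjusted p under 0.05, beside 2126 of 12841 genes, and DESeq2 called 0. Ptgir fell by 0.89 ± 0.13 in young cells (adjusted p = 6.03e-05) and by 0.55 ± 0.12 in aged cells (adjusted p = 0.00704), and Akr1b8 rose by 1.05 ± 0.15 (adjusted p = 5.98e-05) and 0.66 ± 0.13 (adjusted p = 0.0029).

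Interactions between stiffness and matrix passed in 0 of 7 genes in young cells, beside 0.615%, and in 0 of 7 in aged cells, beside 0.0234%. The same held for cell age with stiffness, beside 0.787%, and for cell age with matrix, beside 0.0935%. DESeq2 also called 0 of the 7 in these 4 tests. The 1 unadjusted p under 0.05 was that of Ptgs1 for stiffness by matrix in young cells, where 1476 of 12841 genes had one.

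Ordered by mean level over the 10 groups, Ptgs2, Ptges and Pla2g4a had fresh aged cells first and fresh young cells second. For Ptges and Pla2g4a both fresh groups stood clear of the next one, while for Ptgs2 the fresh young range overlapped that of young cells on SoftA (25 ± 1.85 against 24.6 ± 11 CPM). Ptger4 had the reverse end of the order, with fresh young cells last (13 ± 1.79 CPM), fresh aged cells ninth (30.6 ± 3.53 CPM) and the 4 young cultured groups first. For Ptgs1, Ptgis and Hpgd each group overlapped the next in the order.

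Over the 10 group means, log2 CPM of Ptges correlated with that of Pla2g4a at r = 0.97 and with that of Ptgs2 at 0.90. Over the 8 cultured groups alone the same coefficients were 0.60 and -0.37. The genes most like each member among 8740 were Tgif1 (r = 0.992), P2rx7 and Sema3c for Ptgs2, Tmem120a (0.99), Fxyd5 and Abcc1 for Ptges, and Esf1 (0.989), Tnfaip2 and Kif2a for Pla2g4a. For Ptger4 they were Armc9 (0.977), Klf11 and Cnp, for Ptgis Tmsb10 (0.962), Lactb2 and Pfkp, and for Ptgs1 Xpc (0.965), Rcor3 and Tmf1. These coefficients describe 10 points each and were not tested.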

How the data were processed

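A low-input NEBNext kit and 20 ng of RNA made each library, per the labels' protocols. STAR 2.7.8a and the mm39 build are named in the submitters' processing notes. The authors' deposited table holds whole-number counts per gene, 55357 genes in 29 columns that each match a sample. On the annotation release, the counting tool's version and its strand setting nothing is given in the sources used here.

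edgeR 4.0.16 (R 4.3.3) was run on these counts with TMM scaling, filterByExpr by group, the quasi-likelihood F test and Benjamini-Hochberg adjustment over all genes fitted. Fresh cells were fitted alone (11786 genes), cultured cells together (12841), and cultured against fresh over all 29 libraries (13523). Means over substrates weigh groups equally. The SE was taken as the size of the log2 fold change divided by the root of F. A prior count of 2 was used for log2 CPM. The fits were tested on simulated data. A gene at 10 CPM rested on about 12 to 33 counts per library.

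The 7 genes, 7 pathway lists (93 genes) and 8 marker lists (57 genes) were chosen with earlier results of these data known. Beside the 7 genes, up to 4 genes per list and comparison were named, taking the smallest p among called genes whose mean reached 5 CPM. Genes behind counts of 5 or fewer in 1 direction were named in the main comparisons. Il1b, Tnf, Ttc33 and, in aged cells, Tsc22d3 were picked after their values were seen. Zfp36 and Nr3c1 in fresh cells and Cebpd, Cebpb, Rela and Nfkb1 for age in culture were also named outside this rule. Some genes that the rule gave were left out, such as Dusp1, Fosl1 and Pde4b in fresh cells. Likeness genes are the 3 with the highest r among genes with at least 10 CPM. Intervals and floors of single genes cover counting error only. Alternatives covered scaling, filter, DESeq2 1.42.0, replicate blocks, the libraries fitted and each library left out; the newer edgeR fit was added after seeing the data.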

Additional observations from a re-analysis of the deposited data

Results flagged for a closer look

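5 of the 7 genes responded to culture by different amounts in aged and in young cells, by the test of the difference itself (edgeR's quasi-likelihood interaction). The share over all 13523 tested genes was 20.6% in either direction and 10.1% lower. The difference, aged minus young, was -4.85 for Ptgs2, -1.79 for Ptges, -1.7 for Ptger4, -0.71 for Pla2g4a and -0.51 for Ptgis on the log2 scale. For Ptgs2, Ptges and Pla2g4a culture lowered both ages, aged cells more. For Ptger4 it raised both, young cells more, and for Ptgis the fall passed the test in aged cells and no change passed in young cells. Fresh aged libraries stood above fresh young ones for all 5, and these 6 libraries enter both comparisons.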

How the results depend on the processing

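No direction of a called difference of the 7 genes was reversed in any alternative. Of 2248 values for them, 2214 kept their side of the threshold, 23 lost the call and 11 gained it. Of 2636 for named pathway genes 57 lost it. Direction was compared only where a gene was called, and differences that did not pass could change sign. For Ptgs1 the difference of the culture effects ranged from -0.135 to 0.157. The number of the 7 genes called went from 5 to 4 for the difference between ages with library totals alone (Ptgis), and from 3 to 4 for age in culture with library totals alone and in a fit over all 29 libraries (Pla2g4a). For StiffA over SoftY in young cells it went from 1 to 0 with DESeq2, with no low-count filter and with a replicate block by library number, and with each library left out it was 0 to 0. In aged cells it went from 0 to 1 with no low-count filter and with the block by library number. Leaving out 1 library gave 5 to 5 genes for age in fresh cells, 4 to 6 and 6 to 7 for culture in young and aged cells, 4 to 5 for their difference, 2 to 4 for age in culture and 1 to 1 for aged matrix in aged cells. The cause was not tested.

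Library totals alone moved the median of all genes from -0.017 to -0.144 for age in fresh cells, from -0.029 to -0.143 for culture of young cells and from -0.005 to 0.186 for the difference between ages. The share of calls that were higher went from 47.2% to 30.7% for age in fresh cells, 50.9% to 75.4% for the difference, 43.4% to 56.6% for age in culture, 66.9% to 49.1% and 55.6% to 40.9% for aged matrix in young and aged cells, and 56.8% to 43.6% and 53.2% to 37.5% for StiffA over SoftY. Counts of all genes moved by over 1.5 times with the block by library number for aged matrix in aged cells (956 to 1630) and StiffA over SoftY in aged cells (541 to 977). For stiffness by matrix in young cells 79 became 186 without a filter, 267 with that block and 145 in a fit over all libraries. In aged cells 3 became 6 (DESeq2), 23 (no filter) and 5 (block), and for age by matrix 12 became 21 (DESeq2), 111 (no filter) and 19 (all libraries).

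Replicate numbers did not meet the bar for pairing, every same-numbered pair over 0.1: deviations of same-numbered libraries correlated at a median of 0.01 in cultured cells (13 of 77 pairs over 0.1) and 0.01 in fresh cells (0 of 3), and by library number at 0.08 (13 of 33). Libraries of different number were at -0.06 (3 of 66 over 0.1), so those of 1 number were more alike, and the block by library number raised counts of all genes in the comparisons named above. With the title number as a replicate block the count of the 7 genes called was 5 for age in fresh cells, 5 and 7 for culture in young and aged cells, 5 for their difference, 3 for age in culture, 1 for aged matrix in aged cells, 1 for StiffA over SoftY in young cells and 0 elsewhere, as without it. With the block by library number Pla2g4a had an adjusted p of 0.0698 and Ptgis of 0.0224 for StiffA over SoftY. Depth limits Hpgd most, at 0 to 19 counts per library.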

Other observations

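The lipoxygenase and epoxide branches draw on the same arachidonic acid. Of 16 listed genes, 3 could be tested in fresh cells and 6 in cultured against fresh cells. Culture raised 4 in young and 3 in aged cells and lowered 0. Of all 13523 tested genes 27.1% were higher and 29.9% lower in young cells, and 29.9% and 32.5% in aged cells. Ephx1, the microsomal epoxide hydrolase gene, went from a mean of 141.1 to 605.4 CPM in young cells (2.09 ± 0.09, adjusted p = 7.28e-19) and from 140.2 to 555.7 CPM in aged cells (1.98 ± 0.09, adjusted p = 1.3e-18), by edgeR's quasi-likelihood test. Ephx2, the soluble epoxide hydrolase gene, rose by 5.22 ± 0.50 (adjusted p = 2.69e-10) and by 3.00 ± 0.37 (adjusted p = 3.42e-08), and the epoxygenase gene Cyp2j9 by 1.77 and 2.51. Single fresh libraries moved these sizes: Ephx2 in young cells was at 7.62 without fresh young library 1 and at 4.6 without library 2, and Cyp2j9 in aged cells at 3.36 without fresh aged library 2. In fresh cells Cyp2j6 was higher with age (0.57 ± 0.14, adjusted p = 0.0054), and 0 of 6 genes passed for age in culture. Alox5 had at most 8 counts in any library, and Alox15 had 0 counts in all 29.

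Several prostanoid receptors were near the floor of detection. Ptgdr and Ptgdr2 had 0 counts in all 29 libraries, Ptger1 and Ptger3 had 0 counts in the 6 fresh libraries and at most 4 in any cultured one, and Ptger2 had at most 4 counts in any library. Ptgds, a prostaglandin D synthase gene, had 1 count over all libraries.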
